A study of Mus musculus with 16 samples.

Results

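The 34 genes described here are p53 (Trp53), its inhibitor Mdm2, 24 targets of p53, 4 cell-cycle inhibitors and 4 secreted or receptor genes that are linked to senescence. The members are a list of gene names, with no threshold on their values, and all 34 were found among the 24485 gene IDs of the study. Their levels come from RNA sequencing of 2 lines of mouse embryonic fibroblasts, both immortalized. The exp line has the genotype R26M2rtTA/+;TetOcre;Sdhcfl/fl and the ctl line R26M2rtTA/+;TetOcre;Sdhcfl/wt, so both carry the doxycycline-dependent transactivator rtTA at the Rosa26 locus, a Cre recombinase under its control and at least 1 floxed copy of Sdhc, a subunit of the respiratory enzyme succinate dehydrogenase. Both lines received doxycycline at 1 microgram/mL in low-glucose DMEM with 10% FBS, and the ctl line is therefore an induced control that keeps a wild-type copy of Sdhc. Libraries were made on days 0, 5, 9, 12, 16 and 20, with 3 biological replicates per line on day 16 and 1 library per line on each other day, 16 in all. Each genotype is represented by 1 line, so line and genotype cannot be told apart, and the labels do not say how the lines were immortalized.

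p53 is a transcription factor that is kept at a low level by Mdm2, which is itself a target of p53 and marks p53 for degradation. When DNA damage or other stress frees p53 from Mdm2, p53 raises genes that stop the cell cycle, such as Cdkn1a (p21), genes that promote apoptosis, and genes of DNA repair and metabolism. Senescence is a lasting arrest held by p53 with p21 and by the inhibitors of the Cdkn2 family acting on the retinoblastoma protein, and senescent fibroblasts secrete proteases, protease inhibitors and growth factors. Mouse embryonic fibroblasts commonly escape senescence in culture by losing p53 or the Cdkn2a product p19Arf. The activity of p53 is set largely by protein stability, so the level of Trp53 RNA is no measure of it.

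The libraries held 18121520 to 42486438 reads in genes. Values are FPKM, which are fragment numbers scaled to the length of the gene and to the depth of the library. Sdhc fell to 32.04 ± 5.23 FPKM (SD, n = 3) in the exp line on day 16 against 49.4 ± 1.66 FPKM (SD, n = 3) in the ctl line, from 87.8 and 90.5 FPKM on day 0. The labels do not say which exons are floxed, so these values include any transcript that remains. All 11 fibroblast markers examined reached 1 FPKM in at least 1 library. Their summed level was 4632 to 5354 FPKM in exp libraries and 4121 to 4414 FPKM in ctl libraries. Single markers differed between the lines. Col1a2 was at 373 to 721 FPKM in exp and 80.4 to 103 FPKM in ctl, and Pdgfra at 15.2 to 31.0 and 47.7 to 59.2 FPKM. On day 16, 3 of the 11 were higher and 2 lower in exp at an adjusted p under 0.05 (limma), where 3.1% and 3.01% of genes were. None of 5 endothelial and none of 4 skeletal muscle markers reached 1 FPKM, Myod1, Myog, Adgre1, Cd3e and Zfp42 were listed at 0 in all libraries, and Cd68 and Sox2 alone of the blood and pluripotent cell markers exceeded 1 FPKM. Replicates 2 and 3 of day 16 stood apart from the other libraries in both lines. Across genes they correlated with each other at 0.995 in the exp line and 0.997 in the ctl line, but with replicate 1 at 0.951 and 0.953 (exp) and 0.979 and 0.981 (ctl). Where that changed the call, differences and changes with time that passed a test are therefore also given by replicate or without replicates 2 and 3. For some genes they are also given where the size changed. In bulk RNA, fewer cells of a type and less RNA per cell cannot be told apart.

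The 2 lines differed over all days in 16 of the members, with p53 itself, Serpine2 and Plau lower and Mdm2, Tigar and Cdkn2b higher in the exp line, and no member passed the test of a different change with time. Of the 34 members, 32 had a mean of at least 1 FPKM and were tested; the death receptor gene Eda2r (0.0569 to 0.691 FPKM) and Hgf, the hepatocyte growth factor gene (0 to 0.270 FPKM), were below it. On day 16, 3 of the 32 passed an adjusted p of 0.05 (limma), where 6.1% of all 12533 genes tested passed. All 3, namely Plk2, Serpine2 and Plau, were lower in the exp line, as were 3.01% of genes, and 0 members were higher, as were 3.1% of genes. The median difference on the log2(FPKM + 1) scale was 0.08 over the 32 members and 0.13 over the 23 tested p53 targets, against -0.01 over all genes. Over all days together, 16 of 32 passed, 9 higher and 7 lower in the exp line, where 35.9% of 12559 genes passed, 19.2% as higher and 16.7% as lower. Each library counted alike in that fit, so day 16, with 3 libraries per line, weighed more than any other day. Leaving out day 16 replicates 2 and 3 moved the all-days difference from 0.26 to 0.39 for Ddb2, from -0.38 to -0.48 for Gadd45a and from -0.27 to -0.37 for Phlda3. It moved from -2.03 to -2.33 for Plau and from -2.56 to -2.875 for Serpine2. No member passed the test of a different change with time between the lines. Over all genes 0.207% passed it, 0.183% with the difference rising and 0.0239% with it falling. Among the members, 2 had an unadjusted p under 0.05, where 1388 of 12559 genes did, and limma on recovered read counts (voom) also called 0 members. In simulated data the test of a different change with time recovered 16% of 1.5-fold and 55% of 2-fold changes over 20 days. Differences of that size could therefore be missed. The simulated counts had 1 spread setting for every gene and no shift between day 16 replicates, so recovery in these data may be lower. Within the exp line, Serpine2 was the 1 member whose change over 20 days passed, as a rise, where 4.95% of genes passed (1.36% as rising and 3.59% as falling). Within the ctl line 0 members passed, where 0% of genes passed. In these 2 fits 5 and 2 members had an unadjusted p under 0.05, where 2961 and 203 of 12559 genes did. By voom 0 members passed in both. All differences below are exp minus ctl on the log2(FPKM + 1) scale, which understates the change of genes at low levels.

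**Figure D1:**
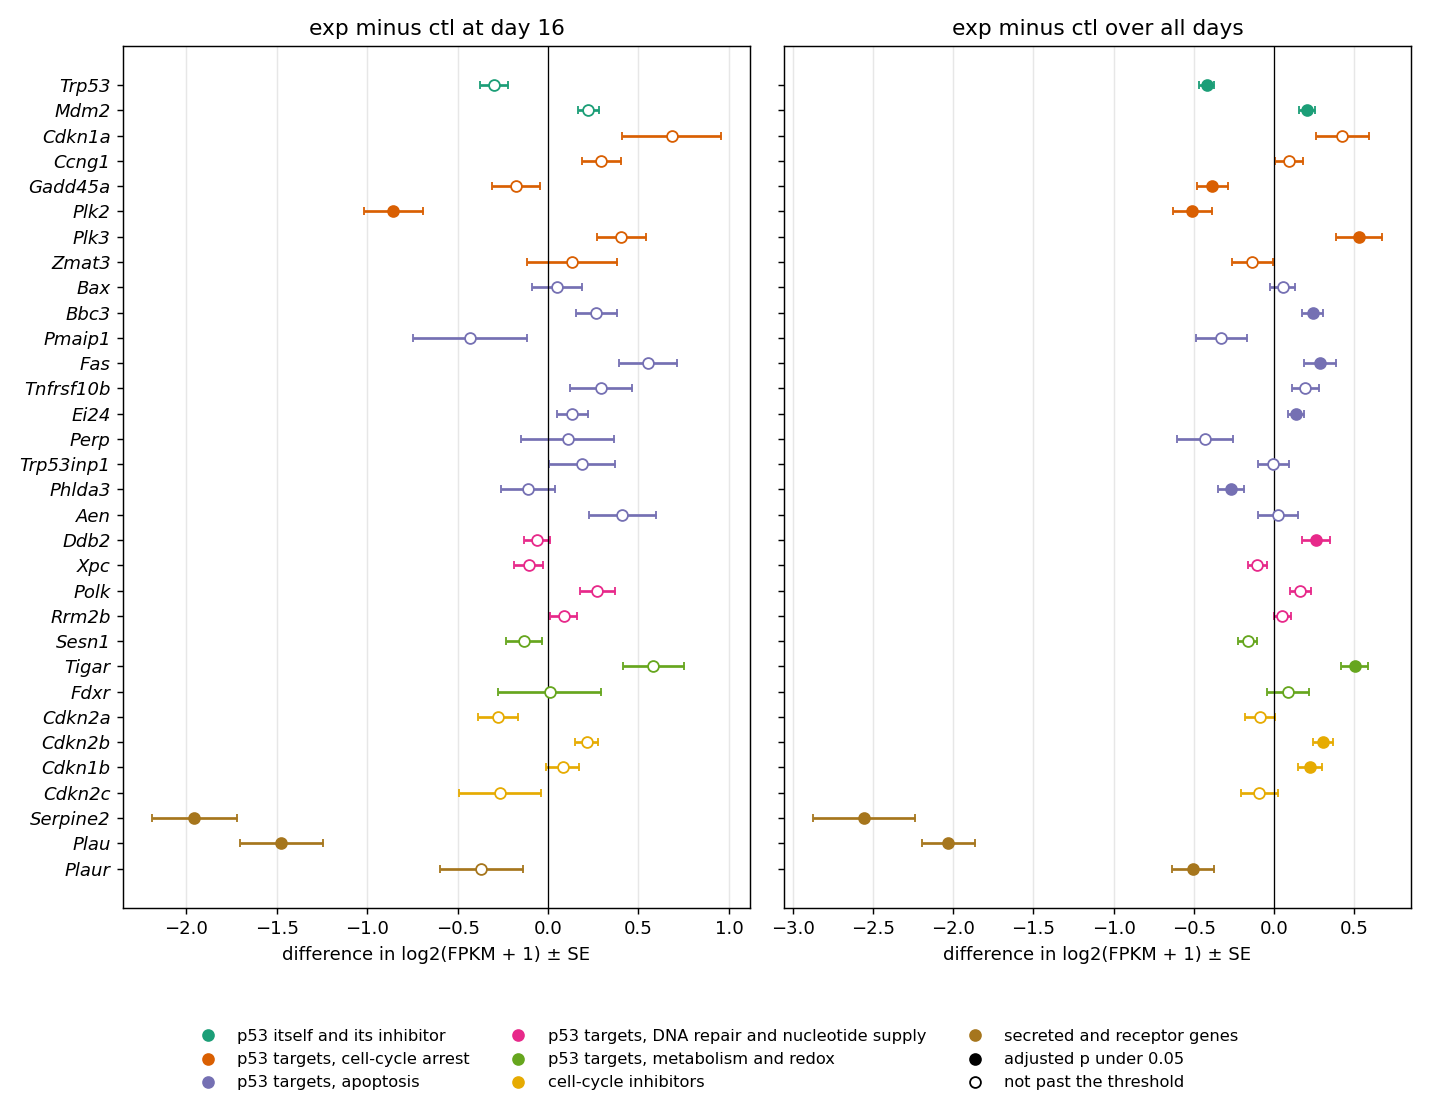
Difference between the exp and ctl lines in log2(FPKM + 1) for the 32 members tested, at day 16 (left, 3 libraries per line) and over all days (right, 8 libraries per line). Points are limma estimates, bars are their standard errors, colours give the functional group and filled points passed an adjusted p of 0.05; Serpine2 and Plau lie farthest to the left in both panels.

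Trp53 was lower in the exp line in each of the 8 libraries, and its inhibitor Mdm2 was slightly higher. Trp53, which encodes p53 (chromosome 11, 69393861 to 69405375, mm9), was at 59.5, 53.2, 55.8 and 57.9 FPKM on days 0, 5, 9 and 12 of the exp line, at 58.9, 62.1 and 62.1 FPKM in its day 16 replicates and at 57.6 FPKM on day 20. The ctl line had 84.3, 78.7, 76.6 and 80.4 FPKM on days 0 to 12, 82.7, 71.8 and 71.9 FPKM on day 16 and 81.8 FPKM on day 20. The highest exp library lay below the lowest ctl library, and the gap was already present on day 0. Over all days the difference was -0.42 ± 0.05 (SE, adjusted p = 5.7e-05), and it passed in all 23 alternative fits. On day 16 alone it was -0.30 ± 0.08 (adjusted p = 0.0827). The non-overlap of the 8 exp with the 8 ctl libraries was shared by 10.2% of genes tested, 4.65% with exp lower and 5.5% with exp higher, and by 4 of the 32 members, namely Trp53, Cdkn2b, Serpine2 and Plau.

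Mdm2 encodes the ubiquitin ligase that limits p53 and is one of its best-known targets. Its exp values were 35.6, 29.6, 22.97 and 25.9 FPKM on days 0 to 12, 30.0, 29.1 and 28.1 FPKM on day 16 and 28.7 FPKM on day 20. Ctl values stayed within a narrower range, at 27.1, 24.0, 24.3 and 23.6 FPKM on days 0 to 12, 23.5, 25.2 and 25.5 FPKM on day 16 and 24.0 FPKM on day 20. On day 9 the exp value was the lowest of the 16, on every other day exp was above ctl, and the day 16 replicates did not overlap. Mdm2 was higher in the exp line over all days by 0.21 ± 0.05 (SE, adjusted p = 0.007), and it missed the threshold only without the day 16 libraries (adjusted p = 0.0983, range over 23 alternatives 0.00139 to 0.0983). At day 16 the difference was 0.22 ± 0.06 (adjusted p = 0.0927).

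**Figure D2:**
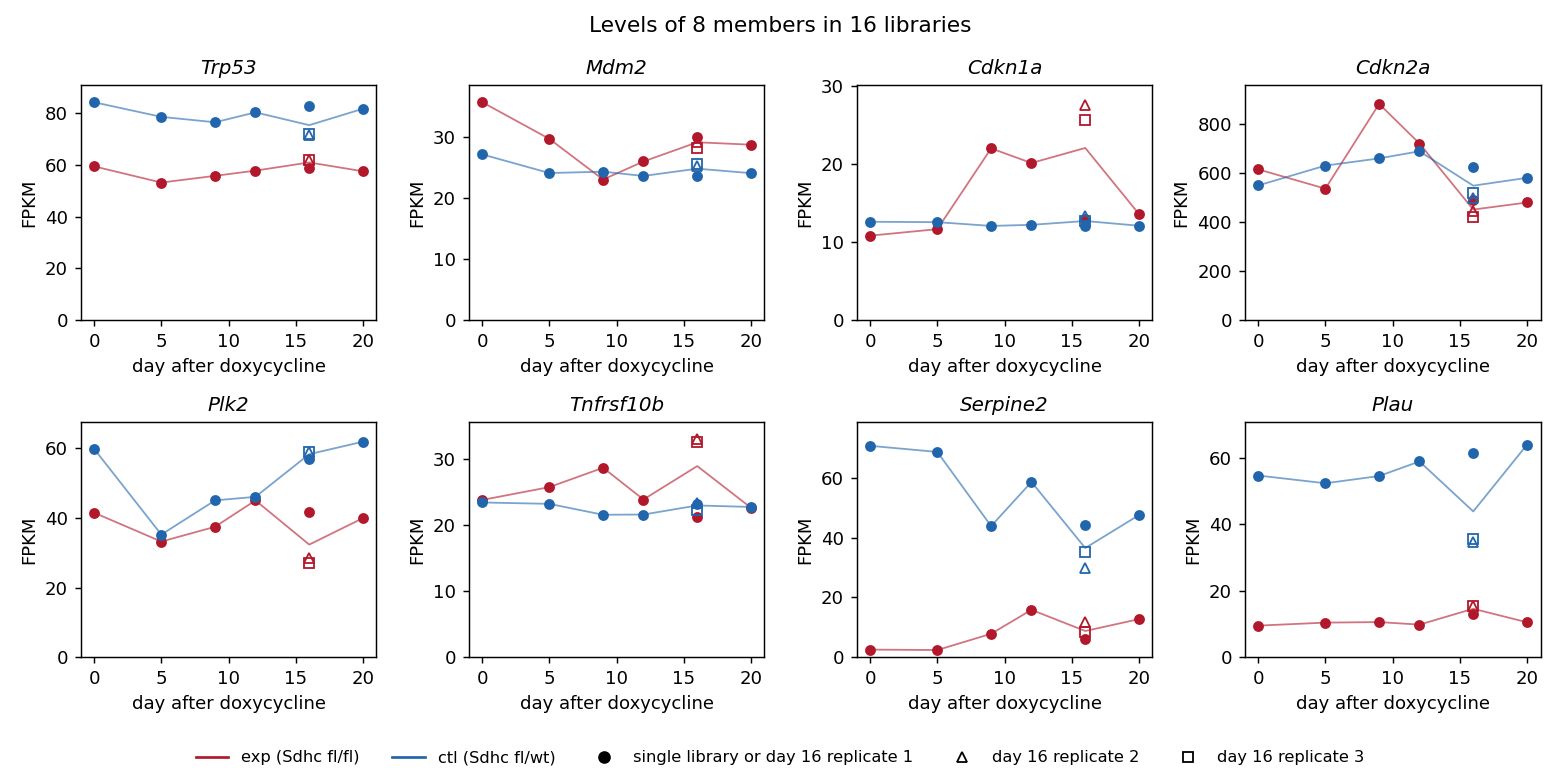
Level in FPKM of 8 members against the day after doxycycline, in the exp line (red) and the ctl line (blue), 1 point per library with the day 16 replicates marked by shape. Lines join the mean of each day; Cdkn1a and Tnfrsf10b are highest in day 16 replicates 2 and 3 of the exp line, while Trp53, Serpine2 and Plau separate the lines on every day.

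Among p53 targets that act in cell-cycle arrest, Cdkn1a varied within the exp line, while Plk2 was lower there and Plk3 higher than in ctl. Cdkn1a encodes p21, the inhibitor of cyclin-dependent kinases through which p53 stops the cycle. It lies on chromosome 17 (29227924 to 29237667, mm9). The p53 consensus site was searched for in 2500 bases on either side of each gene's start. The start is that of the most 5′ annotated protein-coding transcript, which need not be the one mainly used. The site has 20 bases, a pair of adjoining 10-base half-sites with C at position 4 and G at position 7 of each half-site. At most 1 mismatch was allowed at the other positions, and both strands were searched. Matches were found at 3 of 25 genes, the p53 targets and Mdm2 (12%), at 0 of the 9 other members and at 0.76% of 22359 protein-coding genes. These matches are shown because p53 is known to bind sequences of this kind, and each line gives 30 bases of mm9 read 5′ to 3′ on the strand of the gene, with the 20-base match in capitals:

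Cdkn1a, chr17:29227868-29227897, plus strand, 42 bases upstream of the start, 1 mismatch: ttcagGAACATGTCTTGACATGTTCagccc
Ccng1, chr11:40568959-40568988, minus strand, 161 bases upstream, 1 mismatch: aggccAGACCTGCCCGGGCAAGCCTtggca
Ccng1, chr11:40568433-40568462, minus strand, 365 bases downstream, 1 mismatch: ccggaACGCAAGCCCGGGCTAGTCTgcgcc
Zmat3, chr3:32263248-32263277, minus strand, 1337 bases downstream, no mismatch: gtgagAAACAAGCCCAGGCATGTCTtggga

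The Zmat3 match was the 1 without a mismatch among these 25 genes (4%), against 0.085% of protein-coding genes. A match of letters is a description, and binding was not measured.

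Cdkn1a stayed between 12.1 and 13.3 FPKM in all 8 ctl libraries. The exp line had 10.8 and 11.7 FPKM on days 0 and 5, 22.0 and 20.1 FPKM on days 9 and 12, 12.9, 27.6 and 25.7 FPKM in the day 16 replicates and 13.6 FPKM on day 20. Cdkn1a was thus above every ctl library in 4 exp libraries clearly and in day 20 slightly, and replicate 1 of day 16 lay inside the ctl range. The day 16 means were 22.1 ± 7.96 FPKM (SD, n = 3) in the exp line and 12.7 ± 0.596 FPKM (SD, n = 3) in the ctl line, a difference of 0.68 ± 0.27 (SE, adjusted p = 0.213). Without exp replicate 1 it was 1.01 (adjusted p = 0.00135) and with replicates 2 and 3 of both lines alone 0.98 (adjusted p = 3.61e-05), within a range of 3.61e-05 to 0.464 over 16 alternatives. Over all days the difference was 0.42 ± 0.17 (adjusted p = 0.0649), and with the replicate number as a block it passed at an adjusted p of 0.0482, 1 of 4 among 23 alternatives that passed (range 0.0226 to 0.248). Its change with time did not differ between the lines past the threshold (0.70 ± 0.51 per 20 days, SE, adjusted p = 0.664).

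In the exp line, Cdkn1a was higher in libraries where markers of another cell type were lower. The summed FPKM of 9 epithelial and mesothelial markers was 133, 234, 72.8 and 82.3 in the 4 exp libraries with 20.1 to 27.6 FPKM of Cdkn1a (day 9, day 12 and day 16 replicates 2 and 3). It was 265, 246, 867 and 769 in the 4 with 10.8 to 13.6 FPKM (day 0, day 5, day 16 replicate 1 and day 20). The libraries did not overlap, but the nearest sums, 234 and 246, lay close together. The ctl sum was 98.9 to 129 with Cdkn1a at 12.1 to 13.3 FPKM, so low sums did not go with high Cdkn1a there. Most of the ctl sum was Msln, with Krt8, Krt18, Wt1, Upk3b and Upk1b below 1 FPKM. In exp replicate 1 of day 16, Upk3b reached 455 and Wt1 28.2 FPKM. The fibroblast markers Dcn, Col3a1 and Col1a2 were also higher in that library than in replicates 2 and 3, while Thy1, Lum, Pdgfrb, Vim and Fn1 were lower. Of the 9 markers 8 reached 1 FPKM somewhere and Epcam did not. Their part in the level of Cdkn1a was not tested.

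Plk2 and Plk3, polo-like kinases induced by stress, differed between the lines in opposite directions. Plk2 was at 41.5, 33.3, 37.5 and 45.1 FPKM on days 0 to 12 of the exp line, at 41.6, 28.5 and 27.0 FPKM on day 16 and at 39.99 FPKM on day 20. Ctl libraries had 59.9, 35.3, 45.1 and 46.1 FPKM on days 0 to 12, 57.1, 59.0 and 58.9 FPKM on day 16 and 61.9 FPKM on day 20. The lines were closest on days 5 and 12 and farther apart on days 0, 16 and 20. On day 16 Plk2 averaged 32.4 ± 8.03 FPKM (SD, n = 3) against 58.3 ± 1.10 FPKM (SD, n = 3), a difference of -0.86 ± 0.16 (SE, adjusted p = 0.0398). That call was lost in 7 of 16 alternatives, among them leaving out exp replicate 2 or 3 or any ctl replicate and the replicate block (adjusted p = 0.0512, range 1.15e-05 to 0.152). The all-days difference was -0.51 ± 0.12 (adjusted p = 0.0065), and only without the day 16 libraries did it miss (adjusted p = 0.0568, range 0.00458 to 0.0568); without day 16 replicates 2 and 3 it was -0.33.

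Plk3 had its highest level of all, 20.6 FPKM, on day 0 of the exp line, before doxycycline. It then stood at 4.80, 4.74 and 4.67 FPKM on days 5, 9 and 12, at 6.65, 7.27 and 6.82 FPKM on day 16 and at 6.74 FPKM on day 20. The ctl line had 5.89, 3.39, 4.18 and 3.70 FPKM on days 0 to 12, 3.88, 5.52 and 5.68 FPKM on day 16 and 4.25 FPKM on day 20. Each exp library exceeded the ctl library of the same day. The all-days difference was 0.53 ± 0.14 (SE, adjusted p = 0.0128; without day 16 0.0723, range 0.0051 to 0.0723), and the day 16 difference was 0.41 ± 0.14 (adjusted p = 0.152). Day 0 has 1 library per line and no test: there Plk3 differed by 1.65, Serpine2 by -4.31 and Plau by -2.40, and no other member by 1 or more, where 7.39% of genes did. Plk3 shares 84 bases of exon with Tctex1d4 on the opposite strand, and the library kit does not mark strand.

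Gadd45a, a growth-arrest and repair adaptor, had 14.7, 11.3, 10.9 and 12.7 FPKM on days 0 to 12 of the exp line, 13.9, 18.8 and 18.8 FPKM on day 16 and 13.8 FPKM on day 20. Ctl values were 16.0, 19.3, 19.4 and 20.2 FPKM on days 0 to 12, 17.9, 20.8 and 19.4 FPKM on day 16 and 17.0 FPKM on day 20. The exp value was below the ctl value of its day throughout, by the least in day 16 replicate 3. Over all days Gadd45a was lower by 0.38 on the log2 scale (-0.38 ± 0.10 SE, adjusted p = 0.00951), a call held in all 23 alternatives, while on day 16 the difference was -0.18 ± 0.13 (adjusted p = 0.495). It shares 337 exonic bases with the antisense gene E230016M11Rik. The other arrest genes passed no test with all replicates. Ccng1 (cyclin G1, 31.9 to 51.3 FPKM in exp and 36.0 to 41.2 FPKM in ctl) differed by 0.30 ± 0.11 on day 16 (adjusted p = 0.185), and Zmat3, a zinc finger RNA-binding protein (4.93 to 10.2 and 6.36 to 7.66 FPKM), by 0.13 ± 0.25 (adjusted p = 0.811). Over all days Zmat3 differed by -0.13 ± 0.13 (adjusted p = 0.449), and by -0.30 ± 0.06 without day 16 replicates 2 and 3 (adjusted p = 0.00417, range over 23 alternatives 0.00417 to 0.706).

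Among 10 tested p53 targets that promote or accompany apoptosis, none passed on day 16 (1 at an unadjusted p under 0.05, voom 0), and 8 of 10 differences were positive. Of all 12533 genes tested on day 16, 2822 had an unadjusted p under 0.05 and 6074 had a positive difference. Over all days Bbc3, Fas and Ei24 were higher and Phlda3 was lower in the exp line. Bbc3 encodes PUMA, which neutralises the survival proteins of the BCL2 family. It was at 6.83, 4.19, 7.38 and 5.95 FPKM on days 0 to 12 of the exp line, 5.37, 7.30 and 6.17 FPKM on day 16 and 5.13 FPKM on day 20. The ctl line had 5.02, 3.95, 5.52 and 4.87 FPKM, then 4.70, 5.37 and 4.99 FPKM on day 16 and 4.85 FPKM on day 20. Both lines dipped on day 5, and exp exceeded ctl on each day, by 0.24 ± 0.06 over all days (SE, adjusted p = 0.0128; 0.0733 without day 16, range 0.00682 to 0.0733).

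Fas, the death receptor for Fas ligand, was low in both lines. Exp values were 2.93, 2.54, 2.95 and 2.64 FPKM on days 0 to 12, 2.88, 4.41 and 4.70 FPKM on day 16 and 3.06 FPKM on day 20. Ctl values were 2.67, 2.69, 2.15 and 2.39 FPKM, then 2.31, 2.42 and 2.37 FPKM on day 16 and 2.59 FPKM on day 20. The day 16 replicates did not overlap between lines, but exp replicate 1 was much closer to ctl than were replicates 2 and 3. On day 16 the means were 3.998 ± 0.976 and 2.36 ± 0.0556 FPKM (SD, n = 3 each), a difference of 0.55 ± 0.16 (SE, adjusted p = 0.11, range over 15 alternatives 0.000403 to 0.300). The all-days difference of 0.29 ± 0.10 (adjusted p = 0.0425) missed the threshold in 13 of 22 alternatives, one of which left out day 16 replicates 2 and 3 (0.15, adjusted p = 0.152, range 0.0253 to 0.307).

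Ei24, an endoplasmic reticulum protein induced by etoposide, had 40.1, 41.4, 40.4 and 36.2 FPKM on days 0 to 12 of the exp line, 37.0, 33.2 and 33.1 FPKM on day 16 and 35.9 FPKM on day 20. The ctl line had 34.8, 35.0, 33.9 and 35.4 FPKM, then 34.4, 29.7 and 29.8 FPKM on day 16 and 36.1 FPKM on day 20. Its difference was small, 0.14 ± 0.05 over all days (SE, adjusted p = 0.0451), with day 20 reversed, and it missed the threshold in 15 of 23 alternatives (range 0.0231 to 0.156), 1 of them without day 16 replicates 2 and 3 (0.0885). Phlda3, a repressor of Akt signalling, was at 45.5, 34.3, 46.5 and 42.4 FPKM in exp on days 0 to 12, 44.9, 49.9 and 39.2 FPKM on day 16 and 40.3 FPKM on day 20. In ctl it was at 58.6, 46.6, 51.2 and 56.8 FPKM, then 58.6, 42.4 and 44.5 FPKM on day 16 and 56.6 FPKM on day 20. Only in replicate 2 of day 16 was exp above ctl. Over all days it fell short of ctl by -0.27 ± 0.08 (SE, adjusted p = 0.0241), and 4 of 23 alternatives, each without 1 day, lost the call (range 0.00168 to 0.066).

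The remaining apoptosis genes passed no test with all replicates, other than Aen on day 16 in the fit with the replicate number as a block. Tnfrsf10b, a TRAIL death receptor, was at 21.2 to 32.9 FPKM in exp and 21.5 to 23.4 FPKM in ctl, with the 2 highest values in exp day 16 replicates 2 and 3 (32.9 and 32.5 FPKM). Aen, an apoptosis-enhancing nuclease, was highest in the same libraries (17.3 and 16.3 FPKM, range in exp 5.71 to 17.3 and in ctl 6.51 to 11.8 FPKM). Its day 16 difference of 0.41 ± 0.19 had an adjusted p of 0.261, and of 0.0472 with the replicate block (range over 16 alternatives 0.000597 to 0.54). Perp, a desmosomal membrane protein, ranged from 7.90 to 21.9 FPKM in exp and 14.0 to 18.7 FPKM in ctl. Its all-days difference of -0.43 ± 0.17 had an adjusted p of 0.0714, and without day 16 replicates 2 and 3 it was -0.73 ± 0.07 (adjusted p = 0.000127, range over 23 alternatives 0.000127 to 0.171). Bax, which permeabilises mitochondria, ranged from 34.04 to 58.5 FPKM and 39.9 to 51.8 FPKM. Pmaip1, which encodes the BCL2-family protein NOXA, ranged from 7.28 to 19.5 FPKM in exp and 12.7 to 17.8 FPKM in ctl, with its highest exp value in replicate 1 of day 16. Trp53inp1, a p53-induced nuclear protein, ranged from 5.95 to 10.8 FPKM and 5.46 to 13.1 FPKM. Eda2r, the receptor of ectodysplasin A2, rested on 6 to 158 reads per library, with the highest number in exp replicate 2 of day 16, and was not tested.

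Of the p53 targets in DNA repair and nucleotide supply, none of 4 passed on day 16 (voom 0), and Ddb2 passed over all days. On day 16, 1 of the 4 had an unadjusted p under 0.05, where 2822 of 12533 genes did. Ddb2 encodes the damage sensor of nucleotide excision repair. Its exp values were 23.8, 22.6, 26.1 and 25.0 FPKM on days 0 to 12, 16.7, 17.1 and 16.6 FPKM on day 16 and 21.2 FPKM on day 20. Ctl values were 16.7, 19.4, 17.7 and 16.2 FPKM, then 16.1, 18.6 and 18.2 FPKM on day 16 and 15.3 FPKM on day 20. Exp was higher on every day other than day 16, when the replicates overlapped. The all-days difference was 0.26 ± 0.09 (SE, adjusted p = 0.0347), lost in 5 of 23 alternatives, each without 1 of days 0, 5, 9, 12 or 20 (range 0.00273 to 0.093), and the day 16 difference was -0.06 ± 0.07 (adjusted p = 0.675). Ddb2 shares 652 exonic bases with Acp2 on the opposite strand, and unstranded reads there cannot be assigned. Xpc, the damage recognition factor of the same pathway (4.10 to 6.23 and 5.04 to 5.87 FPKM), Polk, a translesion polymerase (4.31 to 6.29 and 4.29 to 5.30 FPKM), and Rrm2b, the p53-inducible subunit of ribonucleotide reductase (4.15 to 5.52 and 4.34 to 5.17 FPKM), passed in none of the main fits. Xpc passed in 1 of 23 all-days alternatives (adjusted p = 0.0449, limma). For Polk the all-days difference of 0.16 ± 0.06 had an adjusted p of 0.0643, and of 0.0415 by voom (range over 23 alternatives 0.0171 to 0.41).

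Tigar, which lowers glycolytic flux by hydrolysing fructose 2,6-bisphosphate, was the metabolic target with the clearest difference. It was at 5.74, 4.92, 4.71 and 4.19 FPKM on days 0 to 12 of the exp line, at 6.15, 8.24 and 7.70 FPKM on day 16 and at 5.74 FPKM on day 20. In the ctl line it was at 3.94, 2.84, 3.43 and 3.16 FPKM, then 3.46, 5.28 and 5.13 FPKM on day 16 and 3.72 FPKM on day 20. Exp exceeded ctl in each day and replicate, and replicates 2 and 3 of day 16 were the highest in both lines. Over all days the difference was 0.50 ± 0.08 (SE, adjusted p = 0.000746), held in all 22 alternatives. On day 16 it was 0.58 ± 0.17 with an adjusted p of 0.112, and of 0.0264 with the replicate block (range over 16 alternatives 0.00085 to 0.298). Tigar shares 115 exonic bases with the antisense gene Gm17701. Sesn1, a stress-induced inhibitor of mTORC1 signalling (9.60 to 14.4 FPKM in exp and 10.4 to 15.5 FPKM in ctl), differed by -0.16 ± 0.06 over all days (adjusted p = 0.0545, and 0.0408 with the replicate block, range over 23 alternatives 0.0389 to 0.127). Fdxr, the mitochondrial ferredoxin reductase (3.89 to 8.46 and 4.23 to 6.14 FPKM), passed no test.

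The 4 cell-cycle inhibitors grouped apart from the p53 targets were expressed throughout, and Cdkn2b and Cdkn1b were higher in the exp line. Cdkn2a encodes both p16Ink4a, an inhibitor of Cdk4 and Cdk6, and p19Arf, an inhibitor of Mdm2, from overlapping transcripts that a gene-level value cannot separate. With 419 to 881 FPKM it had the highest level among the 34 members. Exp libraries had 614, 535, 881 and 719 FPKM on days 0 to 12, 489, 443 and 419 FPKM on day 16 and 479 FPKM on day 20. Ctl libraries had 548, 629, 659 and 688 FPKM, then 625, 497 and 520 FPKM on day 16 and 580 FPKM on day 20. Exp was above ctl on days 0, 9 and 12 and below it on days 5, 16 and 20. The day 16 difference was -0.28 ± 0.11 (SE, adjusted p = 0.211), the all-days difference -0.09 ± 0.09 (adjusted p = 0.499), and the exp change over 20 days -0.56 ± 0.29 (adjusted p = 0.256).

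Cdkn2b, which encodes p15Ink4b and lies next to Cdkn2a on chromosome 4, was higher in every exp library than in any ctl library. Exp had 91.7, 78.3, 72.7 and 73.6 FPKM on days 0 to 12, 77.3, 75.1 and 79.8 FPKM on day 16 and 69.6 FPKM on day 20. Ctl had 54.7, 58.0, 62.4 and 61.8 FPKM, then 63.2, 68.6 and 68.1 FPKM on day 16 and 62.0 FPKM on day 20. The gap was widest on day 0. The all-days difference was 0.30 ± 0.06 (SE, adjusted p = 0.00282) and held in all 23 alternatives. The gap changed by -0.51 ± 0.14 per 20 days (adjusted p = 0.217). Cdkn1b, which encodes p27Kip1, had 75.4, 54.3, 70.1 and 65.1 FPKM on days 0 to 12 of the exp line, 49.7, 58.8 and 54.9 FPKM on day 16 and 57.5 FPKM on day 20. Its ctl values were 49.997, 57.7, 54.2 and 49.6 FPKM, then 46.9, 53.6 and 53.7 FPKM on day 16 and 46.2 FPKM on day 20. Exp was higher on every day but day 5. In the all-days fit it differed by 0.23 ± 0.08 (adjusted p = 0.0344), a call lost in 6 of 23 alternatives (range 0.0181 to 0.085). Cdkn2c, which encodes p18Ink4c (48.0 to 114 FPKM in exp and 62.3 to 94.0 FPKM in ctl), passed no test with all replicates.

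The largest differences of all 32 members were in 2 genes of extracellular proteolysis, both lower in the exp line. Serpine2, also called protease nexin-1, is a secreted inhibitor of thrombin and urokinase. It was at 2.61, 2.47, 7.89 and 15.9 FPKM on days 0 to 12 of the exp line, at 6.18, 11.7 and 8.60 FPKM on day 16 and at 12.8 FPKM on day 20. The ctl line had 70.6, 68.5, 43.8 and 58.5 FPKM on days 0 to 12, 44.2, 30.0 and 35.3 FPKM on day 16 and 47.5 FPKM on day 20. The lines never overlapped, and they were farthest apart on days 0 and 5. On day 16 the means were 8.82 ± 2.76 and 36.5 ± 7.15 FPKM (SD, n = 3 each), a difference of -1.95 ± 0.24 (SE, adjusted p = 0.00918). It was -2.65 in replicate 1 and -1.60 in replicates 2 and 3. That call was lost without ctl replicate 3 (adjusted p = 0.0542, range over 16 alternatives 0.0064 to 0.0542). Over all days the difference was -2.56 ± 0.32 (adjusted p = 9.26e-05).

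Serpine2 rose within the exp line by 1.99 ± 0.47 per 20 days (SE, adjusted p = 0.0323) and its ctl change was -0.94 ± 0.47 (adjusted p = 1). The call within the exp line was lost in 8 of 23 alternatives, among them voom (adjusted p = 0.088), without day 0 (0.285), without day 16 (0.0911) and without exp replicate 2 (0.0546), in a range of 0.0179 to 0.285. The direct test of the difference between these changes gave 2.93 ± 0.57 per 20 days (adjusted p = 0.0806), and none of its 24 alternatives passed (range 0.0641 to 0.64).

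Plau encodes urokinase, the plasminogen activator that Serpine2 inhibits, and Plaur encodes the receptor that holds urokinase at the cell surface. Plau was at 9.55, 10.5, 10.6 and 9.85 FPKM on days 0 to 12 of the exp line, at 12.9, 15.4 and 15.5 FPKM on day 16 and at 10.6 FPKM on day 20. In the ctl line it was at 54.6, 52.3, 54.5 and 58.8 FPKM, then 61.4, 34.6 and 35.5 FPKM on day 16 and 63.9 FPKM on day 20. No exp library reached the lowest ctl library, and day 16 replicates 2 and 3 brought the lines nearest. In the all-days fit Plau differed by -2.03 ± 0.16 (SE, adjusted p = 3.04e-06). On day 16 it differed by -1.48 ± 0.23 (adjusted p = 0.0226), with -2.16 in replicate 1 and -1.13 in replicates 2 and 3. The day 16 call was lost without exp replicate 2 or 3 (0.0848 and 0.0811) or ctl replicate 2 or 3 (0.0539 and 0.0658), in a range of 7.22e-06 to 0.0848 over 16 alternatives.

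Plaur had 12.2, 9.18, 6.99 and 7.10 FPKM on days 0 to 12 of the exp line, 21.1, 16.6 and 13.9 FPKM on day 16 and 15.4 FPKM on day 20. Ctl values were 19.3, 11.7, 15.3 and 13.5 FPKM, then 16.0, 25.5 and 26.6 FPKM on day 16 and 17.0 FPKM on day 20. Exp was lower than ctl in all pairs of libraries except replicate 1 of day 16. The all-days difference was -0.51 ± 0.13 (SE, adjusted p = 0.0112), and without day 16 replicates 2 and 3 it was -0.43 (adjusted p = 0.0842, range over 23 alternatives 0.00205 to 0.0842). Hgf rested on 0 to 44 reads per library, 44 and 34 of them in exp day 16 replicates 2 and 3. In exp replicate 1 it was listed at 0, where a count of 0 allows up to 0.0242 FPKM (3 reads, counting error only).

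**Figure D3:**
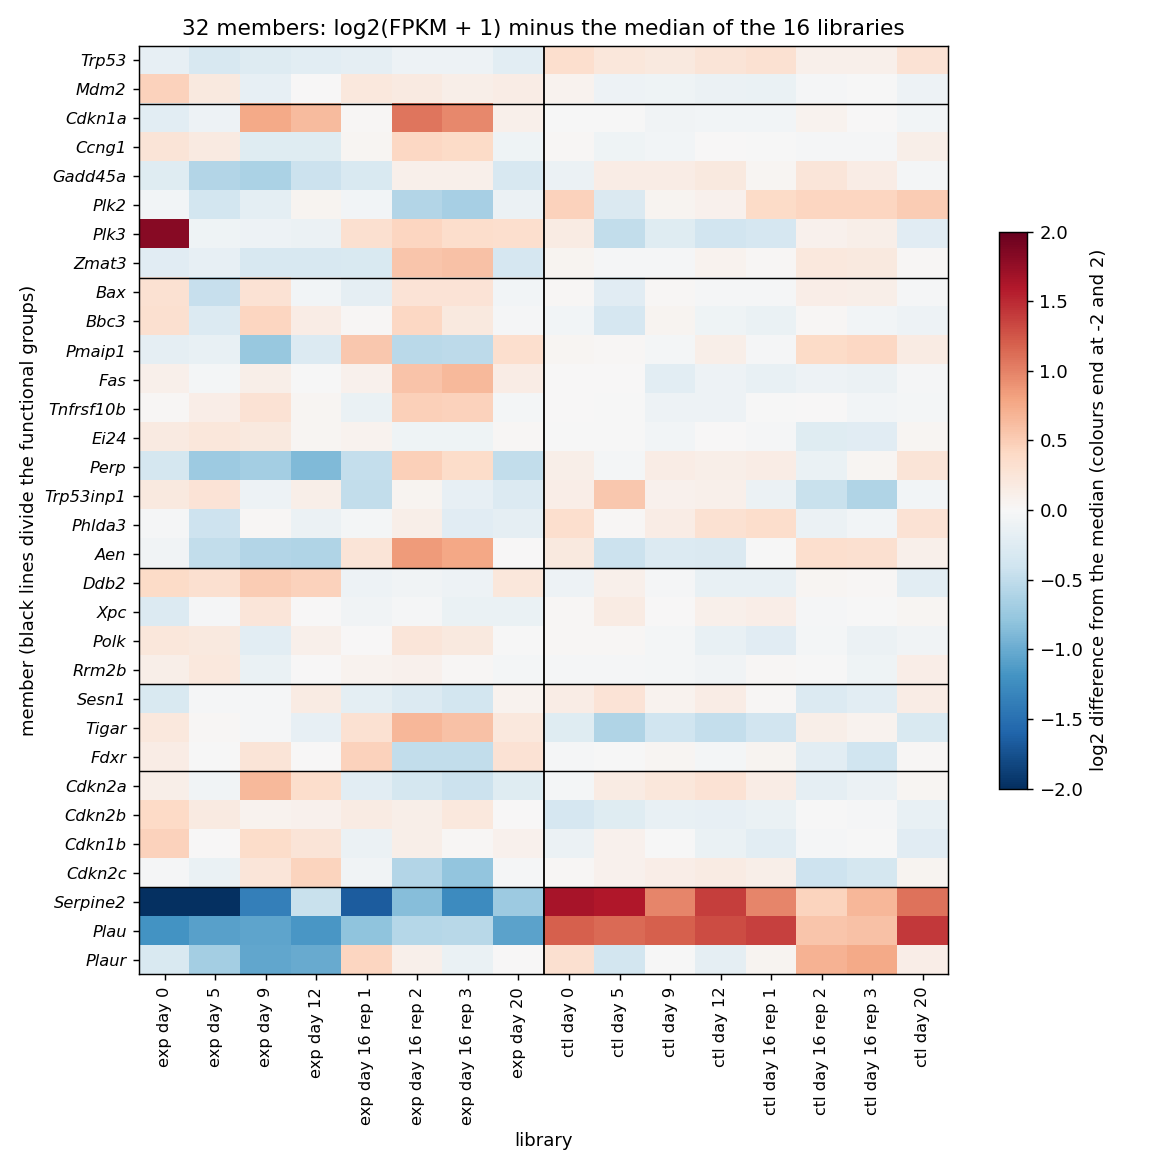
Level of the 32 tested members in each of the 16 libraries as log2(FPKM + 1) minus the median of that gene over the libraries, with exp libraries left and ctl libraries right of the vertical line. Red is above and blue below the median, colours end at 2 and -2, and horizontal lines divide the functional groups; Serpine2 and Plau are blue across the exp line, and Cdkn1a, Zmat3, Fas, Tnfrsf10b, Perp and Aen are red in its day 16 replicates 2 and 3.

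On day 16 the p53 targets had a higher median difference between the lines in replicates 2 and 3 than in replicate 1. In the replicate 1 pair, 13 of 23 targets were higher in exp, with a median difference of 0.05. In replicates 2 and 3, 16 of 23 were higher, with a median of 0.28. Over all 12559 genes, 5914 were higher in replicate 1 and 6186 in replicates 2 and 3, with medians of -0.02 and -0.00. Cdkn1a differed by 0.09 in replicate 1 and by 0.98 in the mean of replicates 2 and 3. The same 2 values were 0.23 and 0.71 for Fas, 0.05 and 0.42 for Ccng1, and 0.26 and 0.48 for Aen. Several targets changed sign between these pairs: Zmat3 went from -0.34 to 0.36, Perp from -0.61 to 0.47, Tnfrsf10b from -0.12 to 0.50 and Trp53inp1 from -0.37 to 0.47. Other targets went the opposite way, with Pmaip1 at 0.57 and -0.93 and Fdxr at 0.41 and -0.19. So did Plaur, a member grouped outside the p53 targets, at 0.37 and -0.74. For Plk2 the difference was -0.45 in replicate 1 and -1.06 in replicates 2 and 3. Tigar differed little between them (0.68 and 0.53). The difference between the replicate sets was not tested.

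**Figure D4:**
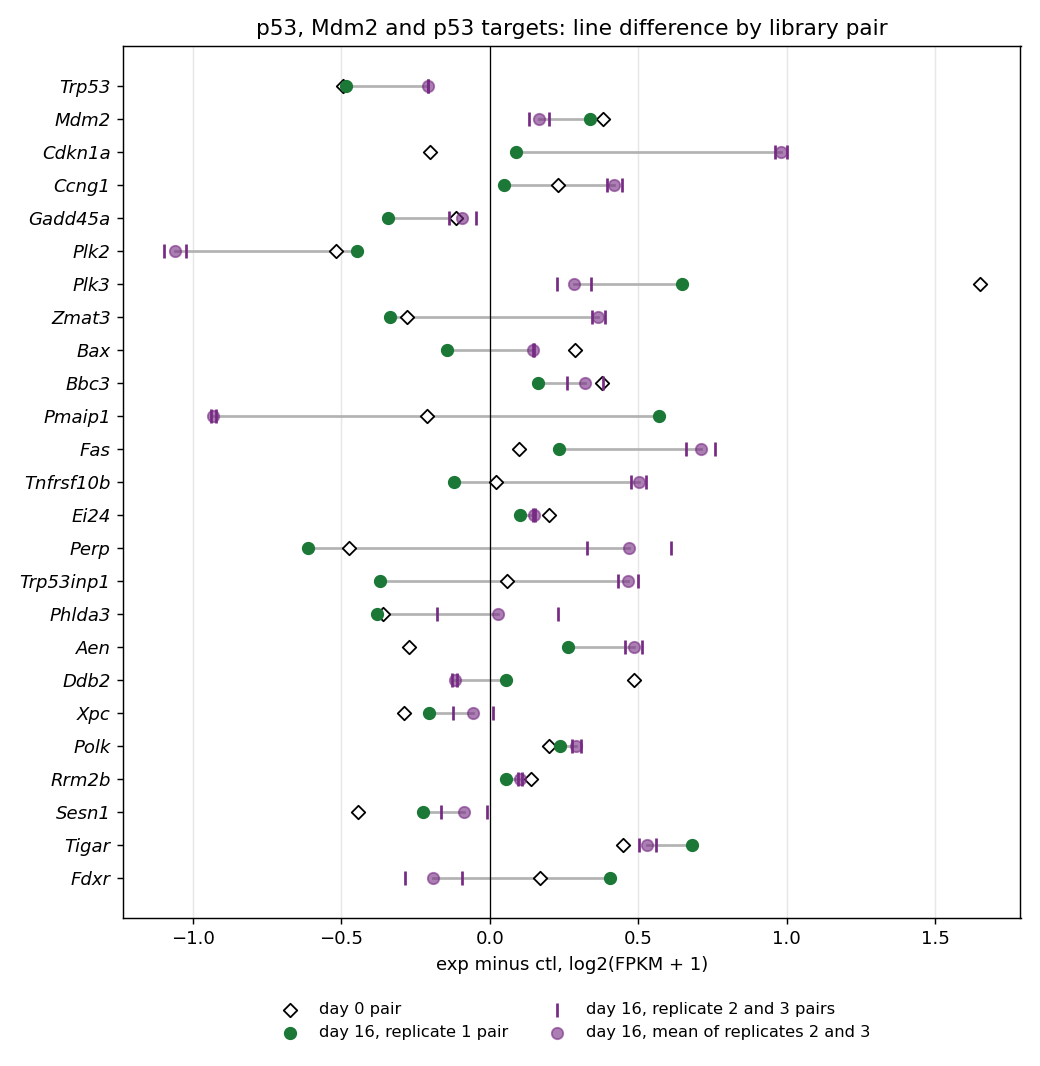
Exp minus ctl difference in log2(FPKM + 1) for Trp53, Mdm2 and the 23 tested p53 targets, in the day 0 pair of libraries (open diamonds), the day 16 replicate 1 pair (green) and the replicate 2 and 3 pairs (bars, with their mean in purple). Grey lines join replicate 1 to the mean of replicates 2 and 3; Cdkn1a, Zmat3, Perp and Tnfrsf10b move to the right and Pmaip1 and Plk2 to the left.

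With replicates 2 and 3 alone, 24 of the 32 members passed on day 16, 16 higher and 8 lower, where 34.7% of 12474 genes passed (17.7% higher and 16.9% lower). Of the 23 p53 targets, 14 were higher and 2, Plk2 and Pmaip1, were lower. The 14 comprised 4 of 6 arrest genes (Cdkn1a, Ccng1, Plk3 and Zmat3) and 8 of 10 apoptosis genes (Bax, Bbc3, Fas, Tnfrsf10b, Ei24, Perp, Trp53inp1 and Aen), with Polk and Tigar. Each line has 2 libraries in that fit and these are the pairs most alike, so its spread is that of the replicates nearest to each other. Leaving out only exp replicate 1, 10 members passed, where 12.8% of genes passed: Cdkn1a, Ccng1, Zmat3, Fas, Tnfrsf10b and Aen as higher (7.28% of genes) and Plk2, Pmaip1, Serpine2 and Plau as lower (5.55% of genes). With the replicate number as a block, 4 members passed, where 8.16% of genes did: Serpine2 (adjusted p = 0.0373) and Plau (0.0472) as lower (3.82% of genes), and Tigar and Aen as higher (4.34% of genes). Without exp replicate 2 or without exp replicate 3, 1 member passed in each case, where 237 of 12516 and 242 of 12527 genes did.

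Within the exp line, replicates 2 and 3 were both above the 6 other exp libraries for 11 of 32 members, where 14.6% of genes were, and both below them for 5, where 18.5% were. The 11 were Trp53, Plau and 9 p53 targets, namely Cdkn1a, Ccng1, Gadd45a, Zmat3, Fas, Tnfrsf10b, Perp, Aen and Tigar. The 5 were Plk2, Ei24, Fdxr, Cdkn2a and Cdkn2c. In the ctl line the corresponding counts were 8 above, where 23.8% of genes were, and 11 below, where 25.8% were. Cdkn1a, Zmat3, Aen and Tigar were among the 8, and the step from replicate 1 to the mean of replicates 2 and 3 was 0.99 in exp and 0.09 in ctl for Cdkn1a, and 0.88 and 0.18 for Zmat3. The summed epithelial and mesothelial markers of the exp line were 867 FPKM in replicate 1 against 72.8 and 82.3 FPKM in replicates 2 and 3, while the ctl sums were 117, 125 and 129 FPKM. The pluripotent cell markers, nearly all Sox2, summed to 2.64, 7.31 and 5.58 FPKM in the exp replicates and to 2.22, 6.86 and 6.86 FPKM in the ctl replicates. Their part in these differences was not tested. Of the 32 members, 14 did not overlap between the 3 exp and 3 ctl day 16 replicates, where 32% of genes did not, and Cdkn1a was not one of them.

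The genes whose levels followed Cdkn1a most closely over the 16 libraries, among 9745 genes with a mean of at least 5 FPKM, were Fgfr2 (Pearson r = 0.914), Afap1 (0.904), Zfp703 (0.899), Gpc4 (0.895) and Il4ra (0.892). These correlations on the log2(FPKM + 1) scale are a description, and their points share lines and libraries. Among the members, Tnfrsf10b came nearest (r = 0.857, rank 19 of 9745), followed by Fas (0.789, below 5 FPKM and so not ranked), Bbc3 (0.675) and Tigar (0.577, likewise not ranked), and Pmaip1 was the most opposed (-0.715). Trp53 itself stood at -0.42 and Mdm2 at -0.01.

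Other genes of the p53 and senescence pathways are given by fixed lists for context. Over all days, where 19.2% of genes were higher in exp and 16.7% lower, 2 of 13 tested regulators of p53 were higher and 4 lower. Of 28 other p53 targets 10 were higher and 5 lower, and of 17 genes of the retinoblastoma pathway 5 and 2. Of 21 tested secreted factors linked to senescence 8 were higher and 3 lower, and of 11 nuclear and lysosomal genes 3 and 2. None of 13 tested regulators of p53, such as Mdm4, Atm and Chek2, passed on day 16 (median -0.03, voom 0). Of these, 3 had an unadjusted p under 0.05, where 2822 of 12533 genes did. The smallest p was that of Daxx, an Mdm2-binding chaperone (0.33 ± 0.08 SE, adjusted p = 0.0774). Of 28 other p53 targets, 3 were higher and 1 lower on day 16 (median 0.12), where 3.1% of genes were higher and 3.01% lower. Those were Ak1, an adenylate kinase (0.53 ± 0.07, adjusted p = 0.0098), Sfn, the G2 checkpoint protein 14-3-3 sigma (0.92 ± 0.12, adjusted p = 0.0121), Ddit4l, an inhibitor of mTOR signalling (2.56 ± 0.54, adjusted p = 0.0499), and, as lower, the autophagy modulator Dram1 (-0.58 ± 0.12, adjusted p = 0.0436). The difference in replicate 1 and in replicates 2 and 3 was 0.39 and 0.61 for Ak1, 0.67 and 1.04 for Sfn, and -0.84 and -0.46 for Dram1. Ddit4l had 9.12 ± 8.55 FPKM (SD, n = 3) in exp and 0.379 ± 0.0914 FPKM (SD, n = 3) in ctl, and its exp-minus-ctl value was 3.78 in replicate 1 and 1.95 in replicates 2 and 3. Within the exp line 2 of these 28, where 3.59% of genes fell, were lower with time: Ccng2, cyclin G2 (-1.27 ± 0.30 per 20 days, adjusted p = 0.0311), and Tob1, an antiproliferative protein (-0.54 ± 0.14, adjusted p = 0.0397). Without day 16 replicates 2 and 3 these changes were -0.98 and -0.64, and both still passed. Of 17 genes of the retinoblastoma pathway, only Cdk6, a cyclin D partner, passed on day 16 (3.39 ± 1.38 against 9.71 ± 0.791 FPKM, SD, n = 3 each, a difference of -1.33 ± 0.22, adjusted p = 0.0262), with -0.83 in replicate 1 and -1.58 in replicates 2 and 3.

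Of the 23 proliferation genes that p21 represses through the DREAM complex, 5 were higher and 1 lower in exp over all days (median 0.10). Over all genes 19.2% were higher and 16.7% lower. None of the 23 passed on day 16 (median -0.08, voom 0), and 5 had an unadjusted p under 0.05, where 2822 of 12533 genes did. None passed the test of a different change with time (voom 0), and 4 had an unadjusted p under 0.05, where 1388 of 12559 genes did. Their difference between the lines went down with time in 21 of 23, as in 57.6% of all genes, with a median of -0.27 per 20 days where that of all genes was -0.06. After median-of-ratios rescaling it went down in 17 of 23 and in 48.9% of all genes, with medians of -0.20 and 0.01. Within the exp line Cenpa, the centromeric histone (-0.91 ± 0.17 per 20 days, adjusted p = 0.0132), Birc5, survivin (-0.55 ± 0.13, adjusted p = 0.0294), and Cdc25c, a phosphatase that starts mitosis (-0.59 ± 0.13, adjusted p = 0.0261), fell, where 3.59% of genes did. Without day 16 replicates 2 and 3 Cenpa (-0.82) and Cdc25c (-0.55) still passed, and Birc5 did not (-0.51, adjusted p = 0.0581, range over 23 alternatives 0.0147 to 0.45). The higher-to-lower split of all genes in that comparison depended on scaling: 171 rose and 451 fell as deposited, and 263 rose and 157 fell after median-of-ratios rescaling.

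Among 21 tested secreted factors linked to senescence, 2 were higher and 1 was lower in exp on day 16, where 3.1% and 3.01% of genes were, with a median of 0.43 against -0.01 over all genes. Igfbp5, an IGF-binding protein, was at 4.66 ± 0.827 against 1.69 ± 0.424 FPKM (SD, n = 3 each; 1.07 ± 0.17, adjusted p = 0.023). Csf1, macrophage colony-stimulating factor, was at 100.4 ± 12.9 against 65.1 ± 7.89 FPKM (SD, n = 3 each; 0.62 ± 0.13, adjusted p = 0.0472). Plat, the tissue plasminogen activator, was at 18.7 ± 0.672 against 29.1 ± 2.02 FPKM (SD, n = 3 each; -0.61 ± 0.07, adjusted p = 0.0072), the same direction as Plau. In replicate 1 and in replicates 2 and 3 the difference was 1.058 and 1.08 for Igfbp5, 0.61 and 0.62 for Csf1, and -0.77 and -0.53 for Plat. Igfbp3 rose within the exp line by 2.93 ± 0.46 per 20 days (adjusted p = 0.0055) and Igfbp5 by 1.22 ± 0.24 (adjusted p = 0.0176), where 1.36% of genes rose, and both passed without day 16 replicates 2 and 3 (2.96 and 1.15). No gene of the list passed the test of a different change with time (voom 0), and 6 had an unadjusted p under 0.05, where 1388 of 12559 genes did. Of the differences in that test, 19 of 21 were positive (median 0.48), as were 42.4% of all genes. After median-of-ratios rescaling it was 19 of 21 and 51.1%. Of 11 nuclear and lysosomal genes linked to senescence, Ets2, a transcription factor that can activate Cdkn2a, was lower on day 16 (-0.59 ± 0.10, adjusted p = 0.0242), by -0.43 in replicate 1 and -0.68 in replicates 2 and 3. Hmgb2, a chromatin protein lost in senescent cells, fell within the exp line (-0.86 ± 0.16 per 20 days, adjusted p = 0.0114), and passed as well without day 16 replicates 2 and 3 (-0.70).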

How the data were processed

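The authors deposited 1 table of FPKM values per gene for each of 16 libraries, per the file headers. The submitters' processing notes name Bowtie2 2.2.3 and mm9; the counting tool is not given in the sources used here, and neither is the annotation. Per the labels' protocols, RNA was isolated with a Qiagen kit and libraries were made with TruSeq v2 for mRNA. Sample titles gave the line, the day and the replicate number. RefSeq names gave a symbol to 24416 of 24485 IDs. FPKM divides by length and depth, so counting error is not visible in it; whole reads were recovered from the steps between values for 18966 of 18966 genes with reads in at least 2 libraries (within 0.02 read of a whole number).

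Tests used limma 3.58.1 with statmod 1.5.0 (R 4.3.3) on log2(FPKM + 1), kept genes whose mean FPKM was at least 1, and ran with trend and robust settings, two-sided, adjusted by Benjamini-Hochberg over all genes tested, at 0.05. The fits covered day 16 alone, all days with day as a factor, a line-by-day term per 20 days, and the change per 20 days within each line. The scripts were tested on simulated data. Day 16 deviations from the group means correlated between same-numbered exp and ctl replicates at 0.381, 0.272 and 0.333. Replicates 2 and 3 also correlated across numbers, exp 3 with ctl 2 at 0.398 and exp 2 with ctl 3 at 0.209. These values do not settle whether the numbers pair the samples. The main fits did not pair them, and the replicate number was a block only in alternative fits. The labels call the day 16 replicates biological and say no more of their source. Gene coordinates and sequences are from mm9 and a GENCODE annotation on it.

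Members and gene lists were chosen with earlier results of these data known. Values in every library are given for Trp53, Mdm2, Cdkn1a, Cdkn2a, members past the threshold in any fit and the 6 largest day 16 differences; from each other list, up to 4 genes with the smallest p were eligible, and the changes within the exp line named beside the lists are those past the threshold. Alternatives were other pseudocounts, filters and scalings, limma without trend and robust, voom on recovered reads, each replicate or day left out, replicates 2 and 3 of day 16 alone, left out, averaged or given a term, no day factor, and the replicate number as a block.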

Additional observations from a re-analysis of the deposited data

How the results depend on the processing

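Of 691 single-gene values under alternatives, 606 kept their direction and their side of the threshold, 68 lost the threshold, 16 reached it and 1 changed sign: the slope difference of Mdm2, which passed in no fit, went from -0.09 to 0.13 per 20 days without day 0. On day 16, 3 members passed with all libraries, 0 to 10 when each replicate was left out in turn, and 24 with replicates 2 and 3 alone, where each line keeps 2 libraries. Without exp replicate 2, exp replicate 3 or ctl replicate 2 it was 1 member and without ctl replicate 3 it was 0; without exp replicate 1 it was 10. Over all genes 765 passed, against 1599 when exp replicate 1 was left out, 237 and 242 for exp replicates 2 and 3, 218 and 197 for ctl replicates 2 and 3, 493 at a mean FPKM of at least 5 and 4326 with replicates 2 and 3 alone. The cause was not tested. Over all days, 12 to 19 members passed against 16, and 3478 to 5505 of all genes against 4503. For the change within the exp line, 1 member passed, 0 to 1 when each replicate was left out, 0 with log2(FPKM + 5), with voom, without day 0, 16 or 20 and with day 16 replicates averaged, and 2 with a term for day 16 replicates 2 and 3 (Serpine2, and Cdkn2b at -0.31, adjusted p = 0.045); over all genes it was 622, in a range from 9 (without day 0) to 1565 (with that term). Median-of-ratios rescaling moved the median change of all genes within the exp line from -0.09 to 0.02. The different change with time passed for 0 members in every alternative (26 of all genes, range 0 to 49), as did the change within the ctl line (0 of all genes, range 0 to 2). With the replicate number as a block, 4 members passed on day 16 (Plk2 lost, Tigar and Aen gained), 18 over all days (Cdkn1a and Sesn1 gained) and 0 for the different change with time, and no other member's call changed. Depth limits Eda2r and Hgf, which held at most 158 and 44 reads in a library.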
